A study of Homo sapiens with 24 samples.

Results

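The set described here consists of 44 genes of the G2 phase and mitosis, taken by gene symbol from a list that no measured value enters as a criterion, though earlier results of these data were known when it was chosen. All 44 were found among the 25728 gene symbols of the count files, and all 44 were among the 14588 genes with enough counts to be tested. Their RNA was followed in TF-1, UT-7 and UCSD-AML1, established human cell lines that the labels give as acute myeloid leukemia and that the series' design text calls EVI1-driven. Each line was cultured with 3 mM cyclocreatine, a creatine analog that creatine kinase phosphorylates, or with vehicle, and RNA was sequenced after 24 h. The 3 lines and 2 treatments gave 6 groups of 4 libraries, 24 in all. Whether replicates were separate cultures is not stated in the labels, and the spread that p-values measure here may therefore be technical. The vehicle is not described, each line stands for itself as 1 model, and no group was untreated. The comparisons ask how mitotic transcripts respond to cyclocreatine in each line, and whether the responses differ between lines.

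Entry into mitosis is driven by cyclin B bound to CDK1, which CDC25 phosphatases switch on, while Polo-like and Aurora kinases build the spindle and steer chromosomes. Kinetochore proteins and kinesin motors attach and move the chromosomes, the spindle checkpoint delays anaphase until all are attached, and CDC20 then directs the anaphase promoting complex to destroy cyclin B and securin. Transcripts of this set peak late in the cell cycle. Their promoters are repressed in resting cells by the DREAM complex and activated by B-MYB with MuvB and by FOXM1, largely through a short element called CHR near the transcription start and CCAAT boxes bound by NF-Y. Proliferating leukemia lines express the set throughout culture.

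Library totals ran from 12794998 to 21200662 counts, and the set took 0.467% to 0.689% of each library. Levels are given as CPM, a library's counts scaled to a common total after correction by edgeR's TMM factors, per library or as mean ± SD of 4 libraries. Fold changes are on the log2 scale with their standard error (SE). Calls are adjusted p under 0.05 by edgeR's quasi-likelihood test with Benjamini-Hochberg adjustment over the 14588 genes. In the vehicle libraries the blood cell gene PTPRC had 349 (TF-1), 635 (UT-7) and 520.5 CPM (UCSD-AML1), and the epithelial and B cell markers KRT5 and MS4A1 had 0 counts. CD34 was at 2.19 CPM in UT-7 against 242 in TF-1 and 584 in UCSD-AML1. MECOM, the gene that encodes EVI1, had a vehicle level of 412 CPM in UCSD-AML1 against 13.0 for TF-1 and 6.34 for UT-7. UCSD-AML1 also had the endothelial gene CDH5 at 259 CPM. Cyclocreatine replicate 1 of TF-1 stood apart, with 9.35% of counts on ribosomal protein genes against 7.75% to 7.79% in its 3 sister libraries. That share moved with treatment everywhere, from 5.77% to 6.02% in TF-1 vehicle libraries, from 5.49% to 5.70% up to 6.41% to 6.94% in UT-7, and from 5.596% to 5.82% up to 6.63% to 6.83% in UCSD-AML1; its part in the results was not tested. Its members' deviations from those sisters declined with transcript length (Spearman rho -0.76 over 44 genes, -0.47 over 14118 genes).

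Promoter sequences of 38 members matched the RefSeq table of build GRCh38.p14, which is not the GRCh37/hg19 build of the count files, so positions here are those of the table. FOXM1, AURKA, BIRC5, TTK, TPX2 and UBE2C had no entry. Each window ran from 250 bases before to 50 after the start. The CHR letters searched were TTTGAA and TTCGAA, and the CCAAT box letters were CCAAT, all on both strands. From 60 bases before to 50 after the start, 23 of 38 members (60.5%) held CHR letters, against 5.46% of 27305 promoters in the table. At least 1 CCAAT was in 29 members (76.3%) against 35.7% of the table, and at least 2 were in 17 (44.7%) against 11.3%. CHR letters near the start together with at least 2 CCAAT were in 10 members (26.3%) against 0.659%. The 150 bases before the start are printed for 7 members, chosen after their values were seen because they span the responses. AURKB and CDC20 rose in all 3 lines, KIF11 and KIF20B fell in all 3, HMMR and CENPE fell in TF-1 and UCSD-AML1, and CCNB2 rose in UT-7 and fell in UCSD-AML1. They lie at chr17:8210226-8210375 and chr4:103198344-103198493 on the minus strand, and at chr1:43358831-43358980, chr10:92592980-92593129, chr10:89701440-89701589, chr5:163460482-163460631 and chr15:59104996-59105145 on the plus strand. Each is written 5′ to 3′ along its gene, and capitals mark CHR or CCAAT letters, or their reverse complements TTCAAA and ATTGG.
AURKB: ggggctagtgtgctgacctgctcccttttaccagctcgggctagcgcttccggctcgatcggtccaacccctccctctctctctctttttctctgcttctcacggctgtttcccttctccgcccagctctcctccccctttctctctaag
CDC20: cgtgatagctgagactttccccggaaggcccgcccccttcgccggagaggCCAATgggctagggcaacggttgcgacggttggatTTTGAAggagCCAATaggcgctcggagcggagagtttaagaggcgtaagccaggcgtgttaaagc
KIF11: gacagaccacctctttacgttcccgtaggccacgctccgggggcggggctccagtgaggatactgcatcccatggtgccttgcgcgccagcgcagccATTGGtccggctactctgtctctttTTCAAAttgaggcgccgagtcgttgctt
KIF20B: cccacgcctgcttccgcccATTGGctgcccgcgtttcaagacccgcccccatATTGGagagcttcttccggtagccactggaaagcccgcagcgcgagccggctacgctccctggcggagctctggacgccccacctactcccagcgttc
HMMR: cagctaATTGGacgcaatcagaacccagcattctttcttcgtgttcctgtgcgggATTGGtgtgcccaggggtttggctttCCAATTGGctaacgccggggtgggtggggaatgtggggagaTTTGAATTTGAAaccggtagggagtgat
CENPE: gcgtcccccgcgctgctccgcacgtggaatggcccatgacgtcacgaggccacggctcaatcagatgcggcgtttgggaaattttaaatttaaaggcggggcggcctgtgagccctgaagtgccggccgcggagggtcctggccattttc
CCNB2: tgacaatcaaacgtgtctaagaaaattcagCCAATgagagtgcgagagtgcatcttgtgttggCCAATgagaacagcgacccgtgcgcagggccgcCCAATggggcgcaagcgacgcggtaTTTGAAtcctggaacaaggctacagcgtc
HMMR carries CHR letters in tandem, at -28 to -23 and at -22 to -17 from the start, and an overlapping pair of CCAAT matches on opposite strands. CDC20 has CHR letters at -65 to -60, and CCNB2 at -29 to -24. KIF11 has them on the minus strand at -28 to -23, while the pair of KIF20B lies after the start, at 25 to 30 and 31 to 36. AURKB and CENPE show no match in these 150 bases. A match is a description of letters and shows no binding.

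Most called members rose in UT-7 and fell in UCSD-AML1, and TF-1 was mixed. In UT-7, 30 of 44 rose with cyclocreatine and 2 fell, where 22.5% of all tested genes rose and 23.3% fell (45.9% together). In UCSD-AML1 3 rose and 16 fell (background 19.1% and 21.3%, 40.5% together). In TF-1 18 rose and 9 fell (background 26.7% and 29.3%, 56% together). With unscaled library totals 9 were higher and 12 lower, but the calls over all 14588 genes shifted too. They went from 3901 higher and 4272 lower to 3001 and 5225. With the libraries of 1 line alone, 14 members were higher and 5 lower in TF-1, 34 and 2 in UT-7, and 6 and 23 in UCSD-AML1. Leaving out TF-1 cyclocreatine replicate 1 gave 19 higher and 8 lower in TF-1. KIF14 (adjusted p = 0.0676), PTTG1 (0.165) and BIRC5 (0.519) then lost their call. KIF20A (log2 fold change 0.16, adjusted p = 0.00162), NUSAP1 (0.12, 0.00315) and CKAP2 (0.13, 0.00507) gained one. The median log2 fold change over the members was 0.21 in UT-7, -0.10 in UCSD-AML1 (-0.04 with each library's trend on transcript GC removed) and 0.08 in TF-1 (0.00 with unscaled totals), against medians of 0.00, -0.00 and -0.01 over all genes tested. Changes were small: members that rose did so by at most 1.45-fold in UT-7, 1.42-fold in UCSD-AML1 and 1.34-fold in TF-1, and the largest fall was 2.02-fold, for CENPE in TF-1. The 4 treated libraries lay wholly above the 4 vehicle libraries for 29 members in UT-7 (background 23.3%), 3 in UCSD-AML1 (21.1%) and 9 in TF-1 (19.3%). They lay wholly below for 2 in UT-7 (24.1%), 21 in UCSD-AML1 (23.1%) and 7 in TF-1 (21%). In bulk RNA fewer cells in a phase and less RNA per cell cannot be told apart.

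**Figure D1:**
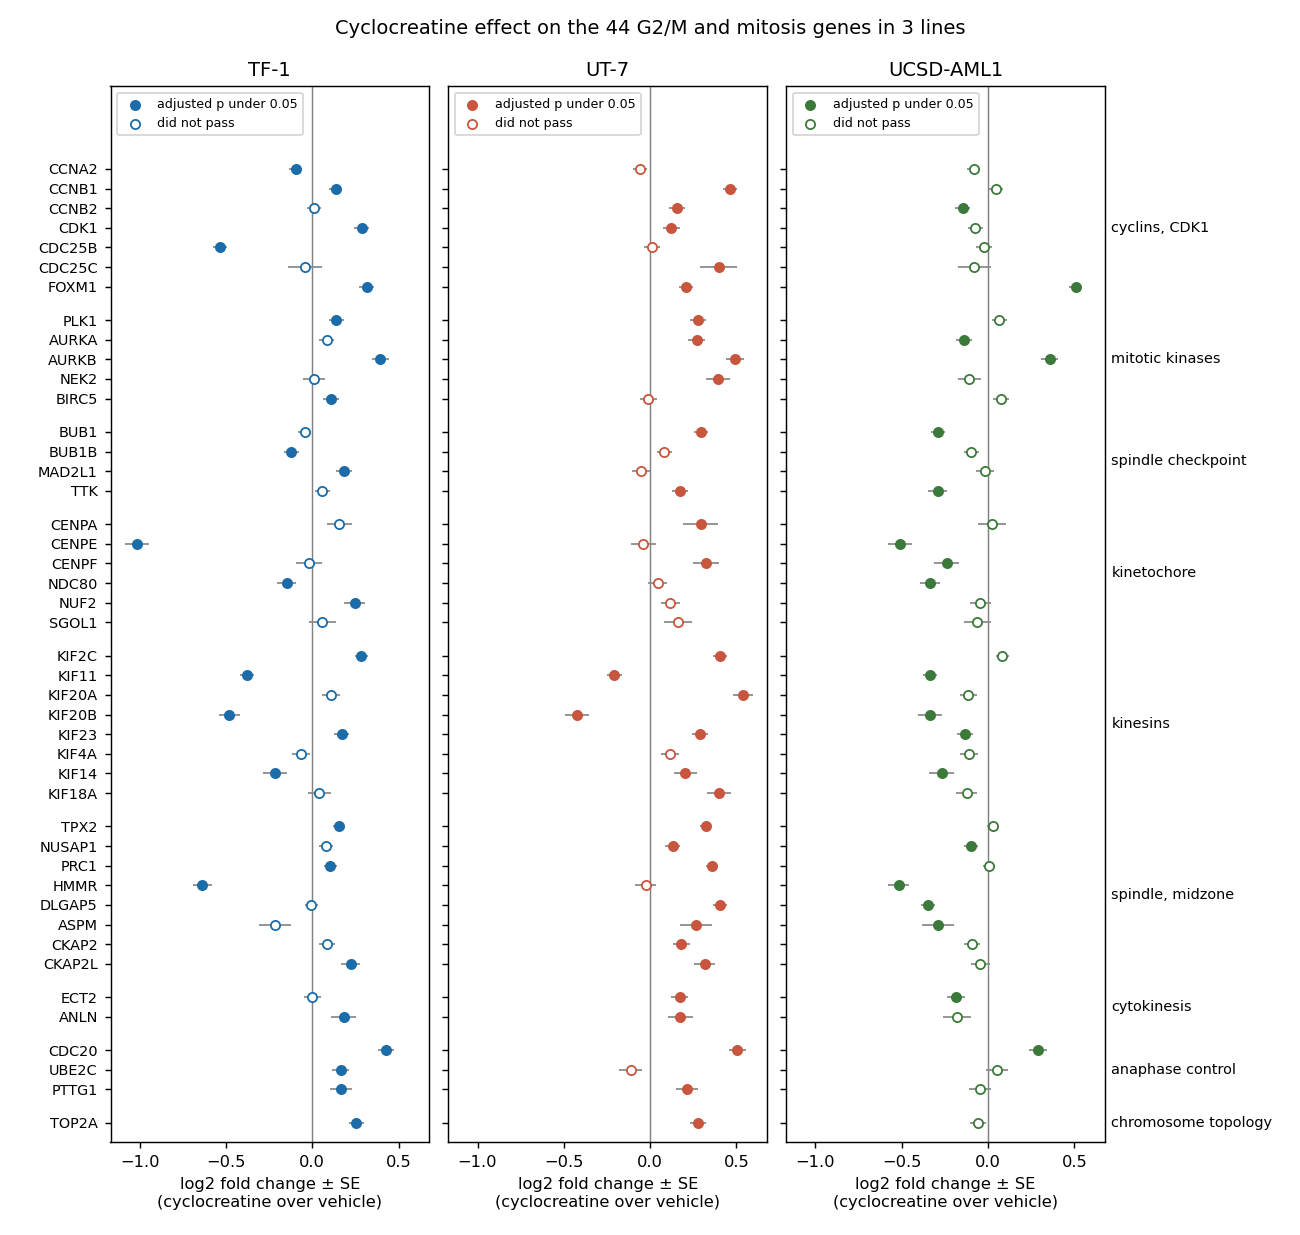
Log2 fold change of cyclocreatine over vehicle (x axis, bars are SE) for the 44 members by role (y axis), with 1 panel for each line and filled points for adjusted p under 0.05. UT-7 points lie mostly right of 0 (30 higher, 2 lower) and UCSD-AML1 points mostly left (3 higher, 16 lower), and CENPE in TF-1 is the largest fall at -1.02.

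Summed over the 44 members, CPM went from 4565 ± 86.0 to 5322 ± 39.9 in UT-7 (mean ± SD, n = 4) and the groups did not overlap. In UCSD-AML1 the sum went from 5090.2 ± 82.0 to 4817 ± 53.4, again with no overlap. In TF-1 it went from 6810.4 ± 55.2 to 7201 ± 159, with the lowest treated library, replicate 1, at 6991 and the highest vehicle library at 6882. These sums were not tested. Without TMM factors the TF-1 groups overlapped, with the set at 0.665% to 0.678% of vehicle counts and 0.639% to 0.689% of treated counts. Treated replicate 1 was then below every TF-1 vehicle library. The UT-7 and UCSD-AML1 groups stayed separate. As the median over genes of each library's log2 CPM minus its line's vehicle mean, the treated libraries stood at 0.17 to 0.22 in UT-7 and at -0.11 to -0.07 in UCSD-AML1. In TF-1 they stood at -0.01 to 0.10, with replicate 1 lowest and inside the vehicle range of -0.02 to 0.02.

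**Figure D2:**
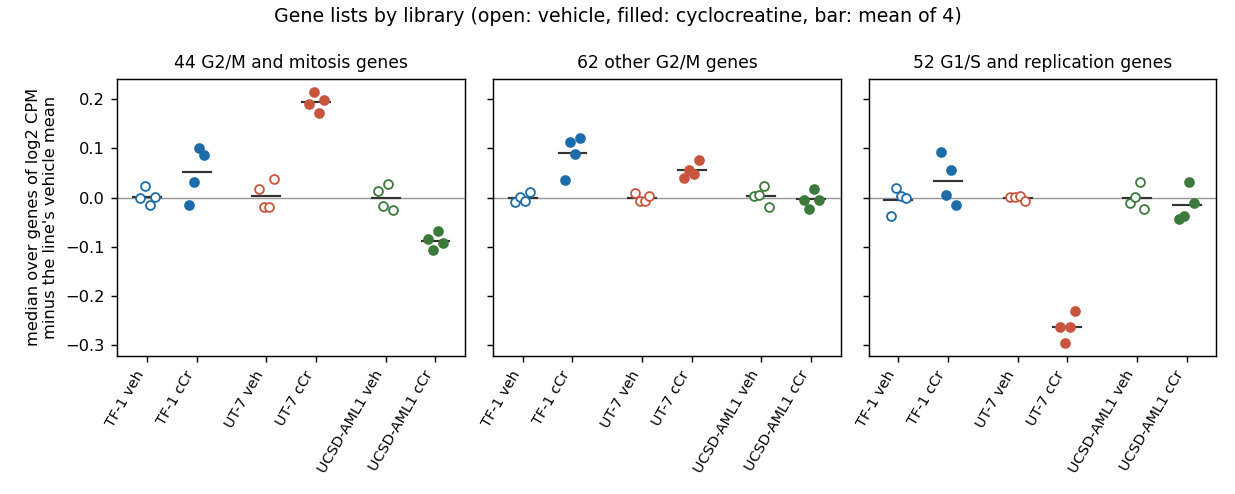
Median log2 CPM deviation from the line's vehicle mean (y axis) for 3 gene lists in each of the 24 libraries (x axis), with vehicle (veh) open, cyclocreatine (cCr) filled and a bar at the mean of 4. UT-7 treated libraries lie at 0.17 to 0.22 for the members and at -0.30 to -0.23 for the 52 G1/S and replication genes, and UCSD-AML1 treated libraries lie at -0.11 to -0.07 for the members.

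Of the 44, 5 members were called in the same direction in all 3 lines. FOXM1, AURKB and CDC20 were higher in each (as were 8.76% of tested genes), and KIF11 and KIF20B were lower in each (8.97%). HMMR, CENPE and NDC80 fell in TF-1 and UCSD-AML1 and did not pass in UT-7. A group of 9 members rose in UT-7, fell in UCSD-AML1 and did not pass in TF-1, and 10 rose in TF-1 and UT-7 without passing in UCSD-AML1. The shares of all tested genes with such mixed patterns were not counted, so no excess among the members is read from them. KIF23 rose in TF-1 and UT-7 and fell in UCSD-AML1, while KIF14 fell in TF-1 and UCSD-AML1 and rose in UT-7. With unscaled totals neither the TF-1 rise of KIF23 (0.09, adjusted p = 0.0927) nor the UT-7 rise of KIF14 (0.17, 0.0682) passed. The fall of KIF23 in UCSD-AML1 was lost without vehicle replicate 4 or cyclocreatine replicate 2 or 4 (adjusted p = 0.0594 to 0.0699) and with the GC trend removed (0.258). That of NUSAP1, 1 of the 9 members, was lost without vehicle replicate 1 or 3 or cyclocreatine replicate 1, 2 or 4 (0.0629 to 0.178), with no filter on low counts (0.065) and with the GC trend removed (0.529). KIF4A, a chromosome-borne motor, and SGOL1, which guards centromere cohesion, passed in no line in the main fit of all 24 libraries. With edgeR on the libraries of 1 line alone, KIF4A passed as higher in UT-7 (0.12, adjusted p = 0.00843) and lower in UCSD-AML1 (-0.10, 0.0228). SGOL1 then passed as higher in UT-7 (0.17, 0.0342). In TF-1 KIF4A passed as lower with unscaled totals (-0.14, 0.0188) and without cyclocreatine replicate 3 (-0.13, 0.0262).

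Among cyclins, CDK1 and their activators (7 members), 5 rose and 0 fell in UT-7, 3 rose and 2 fell in TF-1, and 1 rose and 1 fell in UCSD-AML1. The shares over all tested genes were 22.5% higher and 23.3% lower in UT-7, 26.7% and 29.3% in TF-1, and 19.1% and 21.3% in UCSD-AML1. They stand beside each role group below too. CCNB1, cyclin B1, stood at 182, 185, 182 and 182 CPM in the UT-7 vehicle libraries and at 260.3, 262, 233 and 252 CPM after cyclocreatine. All 4 treated libraries were above all 4 vehicle libraries (log2 fold change 0.46 ± 0.04 SE, adjusted p = 2.91e-12). In TF-1 CCNB1 stood at 181, 197, 189 and 183 CPM in vehicle and 222, 207, 200.1 and 195 CPM in cyclocreatine libraries. Those groups overlapped and the rise was smaller (log2 fold change 0.13 ± 0.04 SE, adjusted p = 0.00399), and it did not pass with unscaled library totals (log2 fold change 0.05, adjusted p = 0.213). In UCSD-AML1 CCNB1 was at 162 ± 4.97 and 167 ± 3.27 CPM (SD, n = 4) and did not pass (log2 fold change 0.05 ± 0.04 SE, adjusted p = 0.392). CCNB2, cyclin B2, rose in UT-7 from 71.4 ± 2.78 to 79.4 ± 4.17 CPM (log2 fold change 0.15 ± 0.04 SE, adjusted p = 0.0043). In UCSD-AML1 CCNB2 stood at 101, 100.4, 98.4 and 97.9 CPM in vehicle and 88.9, 88.2, 92.5 and 89.2 CPM in cyclocreatine libraries, with no overlap (log2 fold change -0.15 ± 0.04 SE, adjusted p = 0.00505). That fall did not pass once each library's trend with transcript GC was removed (-0.10, adjusted p = 0.0538).

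CDK1, the kinase that these cyclins switch on, stood at 128, 141, 140.5 and 137 CPM in TF-1 vehicle and 173, 158, 170.4 and 165 CPM in TF-1 cyclocreatine libraries. The groups did not overlap (log2 fold change 0.29 ± 0.04 SE, adjusted p = 3.91e-07). In UT-7 CDK1 was at 68.4, 67.1, 65.0 and 71.4 CPM in vehicle and 77.0, 76.3, 67.0 and 75.8 CPM in treated libraries, with treated replicate 3 inside the vehicle range (log2 fold change 0.12 ± 0.05 SE, adjusted p = 0.0315). The UT-7 call ended without vehicle replicate 1, 2 or 3 or cyclocreatine replicate 1, 2 or 4 (adjusted p = 0.0506 to 0.116), and with unscaled library totals (0.132). In UCSD-AML1 CDK1 did not pass (log2 fold change -0.07 ± 0.04 SE, adjusted p = 0.175). CCNA2, cyclin A2, which acts in S phase and G2, was lower in TF-1 by little: 164 ± 2.30 to 154 ± 6.11 CPM (log2 fold change -0.09 ± 0.04 SE, adjusted p = 0.0323). That call ended without vehicle replicate 2, 3 or 4 or cyclocreatine replicate 2 or 4 (adjusted p = 0.0611 to 0.0826), and with the libraries of TF-1 alone (0.146). It did not pass in UT-7 (-0.06, adjusted p = 0.242) or in UCSD-AML1 (-0.08, adjusted p = 0.0806).

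CDC25B, a phosphatase that activates cyclin-CDK complexes at mitotic entry, had the second-lowest adjusted p among members in TF-1. It stood at 143, 137, 136 and 143 CPM in vehicle and 101, 95.2, 92.7 and 97.7 CPM in cyclocreatine libraries, with no overlap (log2 fold change -0.53 ± 0.04 SE, adjusted p = 2.38e-13). In UT-7 (0.01 ± 0.05) and UCSD-AML1 (-0.02 ± 0.05) it did not pass (adjusted p = 0.908 and 0.774). CDC25C, its mitotic relative, rose in UT-7 from 10.3 ± 1.08 to 13.6 ± 0.68 CPM (log2 fold change 0.40 ± 0.11 SE, adjusted p = 0.00241). FOXM1, the transcription factor of late cell cycle genes, stood at 125, 123, 121 and 119.6 CPM in UCSD-AML1 vehicle and 175, 169, 176 and 175 CPM after cyclocreatine. It was the member with the largest rise in that line (log2 fold change 0.51 ± 0.04 SE, adjusted p = 5.49e-13), and no treated library overlapped the vehicle range. FOXM1 also rose in TF-1, from 78.4 ± 4.47 to 97.6 ± 4.73 CPM (log2 fold change 0.32 ± 0.04 SE, adjusted p = 5.08e-08), and in UT-7, from 116 ± 2.07 to 133 ± 4.01 CPM (log2 fold change 0.21 ± 0.04 SE, adjusted p = 7.04e-05).

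Of 5 mitotic kinases and chromosomal passenger genes, 4 rose in UT-7, 3 in TF-1 (1 with unscaled totals) and 1 in UCSD-AML1, and AURKA fell in UCSD-AML1. AURKB, the kinase that corrects faulty attachments at centromeres, stood at 59.8, 62.8, 60.03 and 58.4 CPM in UT-7 vehicle and 87.6, 83.2, 82.0 and 86.2 CPM in UT-7 cyclocreatine libraries (log2 fold change 0.49 ± 0.05 SE, adjusted p = 2.98e-10). In UCSD-AML1 it went from 62.7, 60.1, 60.4 and 58.6 CPM to 78.5, 76.6, 76.4 and 78.3 CPM (log2 fold change 0.36 ± 0.05 SE, adjusted p = 3.85e-07). The TF-1 libraries stood at 73.4, 73.2, 72.6 and 72.8 CPM in vehicle and 110.0, 95.1, 90.7 and 88.1 CPM in treated cells (log2 fold change 0.39 ± 0.05 SE, adjusted p = 1.23e-08). The groups overlapped in none of the 3 lines. TF-1 treated replicate 1 was the highest, and without it the log2 fold change was 0.32 (adjusted p = 1.28e-09). PLK1, Polo-like kinase 1, rose in UT-7 from 129 ± 2.35 to 157 ± 8.22 CPM (log2 fold change 0.28 ± 0.05 SE, adjusted p = 2.92e-06). In TF-1 PLK1 went from 205 ± 9.28 to 225 ± 12.6 CPM (log2 fold change 0.14 ± 0.04 SE, adjusted p = 0.00598), which did not pass with unscaled library totals (0.06, adjusted p = 0.223), and in UCSD-AML1 it did not pass (0.07, adjusted p = 0.256). AURKA, which matures centrosomes and the spindle, rose in UT-7 from 54.8 ± 1.72 to 66.0 ± 3.67 CPM (log2 fold change 0.27 ± 0.05 SE, adjusted p = 9.39e-06) and fell in UCSD-AML1 from 66.8 ± 2.82 to 60.6 ± 1.08 CPM (log2 fold change -0.14 ± 0.05 SE, adjusted p = 0.0134). The fall did not pass without UCSD-AML1 vehicle replicate 4 (-0.12, adjusted p = 0.0593). In TF-1 AURKA did not pass (0.08, adjusted p = 0.101). NEK2, a centrosome kinase, rose in UT-7 (log2 fold change 0.39 ± 0.07 SE, adjusted p = 1.22e-05). BIRC5, survivin, was called in TF-1 only (0.11, adjusted p = 0.0488), a call lost without any of 5 libraries, cyclocreatine replicate 1 among them, which was at 205 CPM against 157 to 168 CPM in vehicle.

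The spindle checkpoint genes (4 members) split between lines: 2 rose in UT-7, 2 fell in UCSD-AML1, and 1 rose and 1 fell in TF-1 (0 and 2 with unscaled totals). BUB1, a checkpoint kinase, stood at 142, 138, 133 and 146 CPM in UT-7 vehicle and 174, 175, 170.4 and 166 CPM in UT-7 cyclocreatine libraries (log2 fold change 0.30 ± 0.04 SE, adjusted p = 1.44e-07). In UCSD-AML1 it stood at 183, 184, 187 and 186 CPM in vehicle and 150.4, 147, 158 and 151 CPM in treated libraries (log2 fold change -0.29 ± 0.04 SE, adjusted p = 2.49e-07). Neither line's groups overlapped, and the directions were opposite. TTK, the kinase that starts checkpoint signalling, did the same, from 98.4 ± 2.58 to 111 ± 2.22 CPM in UT-7 (log2 fold change 0.17 ± 0.05 SE, adjusted p = 0.00181) and from 40.1 ± 2.28 to 32.8 ± 2.10 CPM in UCSD-AML1 (log2 fold change -0.29 ± 0.05 SE, adjusted p = 2.79e-05). In TF-1 neither passed, at -0.04 (adjusted p = 0.334) for BUB1 and 0.06 (adjusted p = 0.256) for TTK. MAD2L1, the checkpoint inhibitor of CDC20, rose in TF-1 from 119.7 ± 10.3 to 136 ± 8.15 CPM (log2 fold change 0.18 ± 0.05 SE, adjusted p = 0.00151), but not with unscaled totals (0.10, adjusted p = 0.0545). BUB1B, which encodes the checkpoint protein BUBR1, was lower in TF-1 (log2 fold change -0.12 ± 0.04 SE, adjusted p = 0.014), a call that ended without vehicle replicate 4 (adjusted p = 0.0777) or cyclocreatine replicate 4 (0.0882). The BUB1B call also ended with the libraries of TF-1 alone (adjusted p = 0.113).

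Kinetochore, centromere and cohesion genes (6 members) gave the largest fall of the set. In UT-7 2 rose and 0 fell, in TF-1 1 and 2, and in UCSD-AML1 0 and 3. CENPE, the motor that carries chromosomes to the spindle equator, stood at 105, 97.3, 98.1 and 99.4 CPM in TF-1 vehicle and 39.6, 47.7, 54.9 and 55.1 CPM in TF-1 cyclocreatine libraries. Every treated library was below every vehicle library (log2 fold change -1.02 ± 0.07 SE, adjusted p = 9.05e-15), and without treated replicate 1, the lowest, the log2 fold change was -0.92 (adjusted p = 4.57e-24). In UCSD-AML1 CENPE stood at 81.3, 78.0, 83.2 and 76.3 CPM in vehicle and 61.9, 50.4, 55.1 and 56.7 CPM in treated libraries, again without overlap (log2 fold change -0.51 ± 0.07 SE, adjusted p = 2.22e-07). UT-7 libraries overlapped, at 45.9 to 50.2 CPM in vehicle and 42.9 to 50.5 CPM in treated cells, and CENPE did not pass there (-0.04 ± 0.07, adjusted p = 0.715). NDC80, which grips microtubules at the kinetochore, fell in UCSD-AML1 from 61.2 ± 0.99 to 48.5 ± 2.77 CPM (log2 fold change -0.33 ± 0.06 SE, adjusted p = 7.66e-06) and by less in TF-1 (-0.15, adjusted p = 0.0256). The TF-1 call was lost without vehicle replicate 1 or 2 or cyclocreatine replicate 2 or 4 (adjusted p = 0.0562 to 0.146) and with the GC trend removed (0.0803). It was also lost with the libraries of TF-1 alone (adjusted p = 0.129). NUF2, its partner in the same complex, rose in TF-1 from 31.6 ± 3.20 to 37.5 ± 1.99 CPM (log2 fold change 0.25 ± 0.06 SE, adjusted p = 0.000772). CENPF, a large kinetochore protein, rose in UT-7 from 181 ± 7.26 to 226 ± 18.4 CPM (log2 fold change 0.32 ± 0.07 SE, adjusted p = 0.000973) and fell in UCSD-AML1 from 262 ± 4.14 to 222 ± 12.2 CPM (log2 fold change -0.24 ± 0.07 SE, adjusted p = 0.011). CENPA, the histone H3 variant of centromeres, was higher in UT-7 (13.9 ± 0.95 and 17.0 ± 2.65 CPM, log2 fold change 0.29 ± 0.10 SE, adjusted p = 0.0148), but not without vehicle replicate 1 or cyclocreatine replicate 2 or 4 (adjusted p = 0.0609 to 0.0844).

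**Figure D3:**
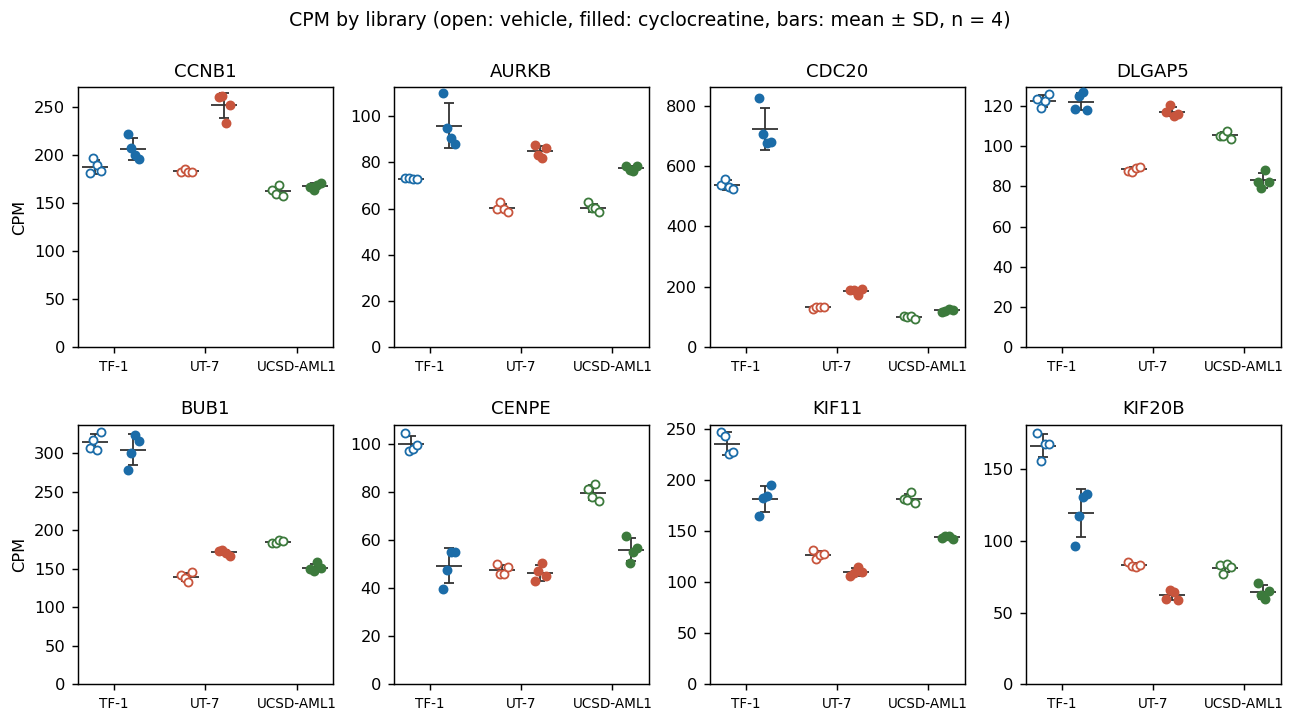
CPM (y axis, from 0) of 8 members in the 24 libraries (x axis, by line), with vehicle open, cyclocreatine filled and bars at mean ± SD of 4. AURKB and CDC20 are higher and KIF11 and KIF20B lower after cyclocreatine in each line, DLGAP5 and BUB1 are higher in UT-7 and lower in UCSD-AML1, and CENPE in TF-1 goes from 97.3 to 105 CPM down to 39.6 to 55.1 CPM.

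Kinesins (8 members) held both the 2 members that fell in all lines and the largest rise in UT-7. In UT-7 5 rose and 2 fell, in TF-1 2 and 3 (1 and 4 with unscaled totals), and in UCSD-AML1 0 and 4. KIF11, the motor that pushes spindle poles apart, stood at 247, 244, 226 and 227 CPM in TF-1 vehicle and 165, 182, 185 and 195 CPM in TF-1 cyclocreatine libraries (log2 fold change -0.38 ± 0.04 SE, adjusted p = 6.27e-10). In UCSD-AML1 it went from 181, 180.3, 189 and 178 CPM to 143, 146, 145 and 143 CPM (log2 fold change -0.34 ± 0.04 SE, adjusted p = 3.05e-08), and in UT-7 from 132, 123, 126 and 127 CPM to 106, 109, 115 and 110.0 CPM (log2 fold change -0.21 ± 0.04 SE, adjusted p = 0.000148). No line's groups overlapped. KIF20B, a motor of late cytokinesis, fell from 166 ± 8.11 to 119 ± 16.6 CPM in TF-1 (log2 fold change -0.48 ± 0.06 SE, adjusted p = 9.68e-08) and from 83.2 ± 1.52 to 62.1 ± 3.46 CPM in UT-7 (log2 fold change -0.42 ± 0.07 SE, adjusted p = 6.59e-06). In UCSD-AML1 it fell from 81.2 ± 3.09 to 64.4 ± 4.76 CPM (log2 fold change -0.34 ± 0.07 SE, adjusted p = 0.00017), all without overlap. With the GC trend removed the UCSD-AML1 values were -0.16 for KIF20B (adjusted p = 0.0128) and -0.21 for KIF11 (4.14e-06).

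KIF20A, which carries the passenger complex to the central spindle, stood at 45.6, 44.01, 41.3 and 47.4 CPM in UT-7 vehicle and 69.7, 68.1, 59.9 and 60.8 CPM after cyclocreatine (log2 fold change 0.54 ± 0.06 SE, adjusted p = 4.06e-10). It did not pass in TF-1 (0.11, adjusted p = 0.0684) or UCSD-AML1 (-0.11, adjusted p = 0.0697), although its 4 treated UCSD-AML1 libraries all lay below the vehicle ones. KIF2C, a microtubule depolymerase at centromeres, rose in UT-7 from 146 ± 3.70 to 193 ± 3.77 CPM (log2 fold change 0.40 ± 0.04 SE, adjusted p = 5.45e-11). In TF-1 it rose from 282 ± 3.17 to 343 ± 13.4 CPM (log2 fold change 0.28 ± 0.04 SE, adjusted p = 3.74e-08). KIF23, of the central spindle, and KIF18A, which dampens chromosome movements, rose in UT-7 by 0.29 and 0.40 on the log2 scale (adjusted p = 2.35e-06 and 7.6e-06). KIF14, a motor of cytokinesis, rose in UT-7 (log2 fold change 0.20 ± 0.07 SE, adjusted p = 0.0116) and fell in UCSD-AML1 (log2 fold change -0.27 ± 0.07 SE, adjusted p = 0.00304). The UT-7 rise of KIF14 did not pass with unscaled totals (adjusted p = 0.0682). Its fall in TF-1 (-0.21, adjusted p = 0.0104) was lost without treated replicate 1, at 46.3 CPM against 64.2 to 69.5 CPM in its sisters. That call was also lost with the libraries of TF-1 alone (adjusted p = 0.0866).

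Spindle assembly and midzone genes (8 members) rose in UT-7 for 7 and fell in UCSD-AML1 for 4. DLGAP5, a spindle protein that stabilizes kinetochore fibers, stood at 87.8, 87.0, 89.4 and 89.9 CPM in UT-7 vehicle and 117, 121, 115 and 116 CPM in treated UT-7 libraries (log2 fold change 0.41 ± 0.04 SE, adjusted p = 7.64e-11). In UCSD-AML1 it stood at 105, 105, 108 and 104 CPM in vehicle and 82.4, 79.2, 88.3 and 82.0 CPM in treated libraries (log2 fold change -0.35 ± 0.04 SE, adjusted p = 5.54e-09). Groups were separate in both lines, in opposite directions, and in TF-1 DLGAP5 did not pass (-0.01 ± 0.04, adjusted p = 0.922). The UCSD-AML1 fall was -0.22 with the GC trend removed (adjusted p = 1.55e-05). PRC1, which bundles the midzone, rose in UT-7 from 145 ± 2.38 to 185 ± 3.65 CPM (log2 fold change 0.36 ± 0.03 SE, adjusted p = 6.27e-11), and TPX2, the activator of AURKA, rose from 233 ± 4.72 to 291 ± 7.75 CPM (log2 fold change 0.32 ± 0.03 SE, adjusted p = 9.57e-11). TPX2 also rose in TF-1 from 682 ± 15.2 to 758 ± 21.2 CPM (log2 fold change 0.15 ± 0.03 SE, adjusted p = 5.63e-05).

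HMMR, a spindle pole protein, stood at 124, 128, 123 and 128 CPM in TF-1 vehicle and 67.3, 81.4, 87.0 and 86.9 CPM in TF-1 treated libraries (log2 fold change -0.64 ± 0.06 SE, adjusted p = 2.15e-12). In UCSD-AML1 it stood at 67.6, 68.9, 77.7 and 70.4 CPM in vehicle and 51.4, 48.0, 49.1 and 50.2 CPM in treated libraries (log2 fold change -0.52 ± 0.06 SE, adjusted p = 6.13e-09). Both lines' groups were separate. In UT-7 HMMR did not pass, at 66.5 ± 3.83 CPM in vehicle and 65.3 ± 2.04 CPM in treated libraries (-0.03 ± 0.06, adjusted p = 0.779). ASPM, which organizes spindle poles, rose in UT-7 (0.26, adjusted p = 0.0238) and fell in UCSD-AML1 (-0.29, adjusted p = 0.0169). The UCSD-AML1 fall did not pass with the GC trend removed (-0.15, adjusted p = 0.0857). In TF-1 ASPM did not pass (-0.21, adjusted p = 0.0553), with treated replicate 1 at 102 CPM against 155 to 161 CPM in its sisters. NUSAP1, CKAP2 and CKAP2L, which act on spindle microtubules, rose in UT-7 by 0.13, 0.18 and 0.31 on the log2 scale (adjusted p = 0.00931, 0.0017 and 2.45e-05). The ASPM call in UT-7 was lost without vehicle replicate 3 or cyclocreatine replicate 2 or 3 (adjusted p = 0.0504 to 0.0748) and with unscaled totals (0.0713). The NUSAP1 call there was lost without vehicle replicate 2 (0.0654) and with unscaled totals (0.0725).

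The cytokinesis genes ECT2, which activates RhoA at the cell equator, and ANLN, anillin, both rose in UT-7. ECT2 went from 71.5 ± 4.88 to 80.5 ± 1.05 CPM (log2 fold change 0.17 ± 0.05 SE, adjusted p = 0.00557) and, in UCSD-AML1, fell from 53.4 ± 2.32 to 47.0 ± 1.28 CPM (log2 fold change -0.18 ± 0.05 SE, adjusted p = 0.00525). With the GC trend removed the fall of ECT2 did not pass (-0.06, adjusted p = 0.366). ANLN stood at 60.8, 59.4, 60.8 and 62.6 CPM in UT-7 vehicle and 68.4, 72.1, 67.3 and 67.3 CPM in treated UT-7 libraries (log2 fold change 0.17 ± 0.07 SE, adjusted p = 0.0462). Its groups did not overlap, yet leaving out any 1 library but cyclocreatine replicate 3 ended the call (adjusted p = 0.0574 to 0.126), and DESeq2 gave 0.0757. In TF-1 ANLN was called (log2 fold change 0.18 ± 0.07 SE, adjusted p = 0.0281, and 0.28 without cyclocreatine replicate 1) but not without vehicle replicate 1 or 3 or cyclocreatine replicate 3 or 4 (adjusted p = 0.0516 to 0.203). Nor did it pass with the libraries of TF-1 alone (adjusted p = 0.107).

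The 3 genes of anaphase control rose in TF-1 (1 with unscaled totals), 2 of them rose in UT-7 and 1 in UCSD-AML1. CDC20, which directs the anaphase promoting complex, stood at 537, 558, 529.6 and 524 CPM in TF-1 vehicle and 824, 707, 676 and 679.9 CPM in TF-1 cyclocreatine libraries (log2 fold change 0.43 ± 0.05 SE, adjusted p = 7.41e-10). In UT-7 it stood at 124, 133, 132 and 134 CPM in vehicle and 189, 189.8, 171 and 193 CPM in treated libraries (log2 fold change 0.51 ± 0.05 SE, adjusted p = 1.51e-10). In UCSD-AML1 it went from 103, 97.7, 103 and 92.3 CPM to 117, 118, 126 and 123 CPM (log2 fold change 0.29 ± 0.05 SE, adjusted p = 2.05e-05), so that no line's groups overlapped. Without TF-1 treated replicate 1, the highest, the rise was 0.36 (adjusted p = 4.1e-15), and with the GC trend removed the UCSD-AML1 rise was 0.18 (adjusted p = 0.000952). PTTG1, securin, rose in UT-7 from 71.2 ± 1.89 to 82.5 ± 5.02 CPM (log2 fold change 0.21 ± 0.06 SE, adjusted p = 0.00627). Its TF-1 call (0.16, adjusted p = 0.0251) was lost without vehicle replicate 3 or 4 or cyclocreatine replicate 1 (0.0778 to 0.165), with the libraries of TF-1 alone (0.0922), in DESeq2 (0.0569) and with a trend on transcript length removed (0.891). UBE2C, the ubiquitin-conjugating enzyme of the complex, was higher in TF-1 (127 ± 3.73 and 143 ± 10.97 CPM, log2 fold change 0.17 ± 0.05 SE, adjusted p = 0.00505), but stood at -0.01 (adjusted p = 0.897) once a trend with transcript length was removed and did not pass with unscaled totals (0.08, adjusted p = 0.132). TOP2A, the topoisomerase that untangles sister chromatids, stood at 582, 559, 552 and 577 CPM in UT-7 vehicle and 684, 693, 695 and 681 CPM in treated libraries (log2 fold change 0.28 ± 0.05 SE, adjusted p = 5.5e-06). In TF-1 it stood at 679.6, 649, 671 and 685 CPM in vehicle and 665, 843, 856 and 841 CPM in treated libraries, where replicate 1 lay inside the vehicle range and the other 3 above it (log2 fold change 0.26 ± 0.05 SE, adjusted p = 1.33e-05). TOP2A did not pass in UCSD-AML1 (-0.06, adjusted p = 0.361).

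The difference between lines was tested directly as an interaction term. Between UT-7 and UCSD-AML1, 32 of 44 members had a higher log2 fold change in UT-7 and 1, FOXM1, a lower one, against 11.5% and 11.5% of all tested genes (23% together). The median difference was 0.31 over the members and 0.01 over all genes tested. DLGAP5 differed by 0.75 ± 0.06 SE (adjusted p = 5.67e-13), BUB1 by 0.58 ± 0.06 (3.75e-10), KIF20A by 0.65 ± 0.08 (1.92e-08) and CCNB1 by 0.41 ± 0.06 (4.94e-07). All 8 spindle assembly genes were among the 32. TF-1 minus UT-7 gave 2 higher (MAD2L1 and UBE2C) and 18 lower, against a background of 14.3% and 13.2% (27.5% together). CENPE led these, at -0.98 ± 0.10 (adjusted p = 4.56e-09), followed by CDC25B at -0.54 ± 0.06 (2.27e-08), HMMR at -0.61 ± 0.08 (3.94e-07) and DLGAP5 at -0.41 ± 0.06 (5.04e-07). The UBE2C difference did not pass without UT-7 cyclocreatine replicate 3, which left 1 higher.

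TF-1 minus UCSD-AML1 gave 17 higher and 3 lower (background 14.8% and 14.3%, 29.1% together). With unscaled totals 6 were higher and 3 lower. All tested genes then had 1329 higher and 2766 lower, against 2156 and 2086 with TMM factors. With TMM factors the 3 lower members were CDC25B, at -0.51 ± 0.06 (adjusted p = 5.18e-08), CENPE, at -0.51 ± 0.10 (0.000118), and FOXM1. DLGAP5 was higher by 0.34 ± 0.06 (9.58e-06) and CDK1 by 0.36 ± 0.06 (1.36e-05). The 3 treatment contrasts share no library. As a description over the 44 members, with no test, their log2 fold changes had a Pearson r of 0.73 between TF-1 and UCSD-AML1 (Spearman rho 0.73), 0.55 (0.40) between TF-1 and UT-7 and 0.38 (0.27) between UT-7 and UCSD-AML1. Over all genes tested, r was 0.31, 0.41 and 0.31. The sign was the same for 27, 30 and 15 members. Points share their library sizes, depth and transcript composition.

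**Figure D4:**
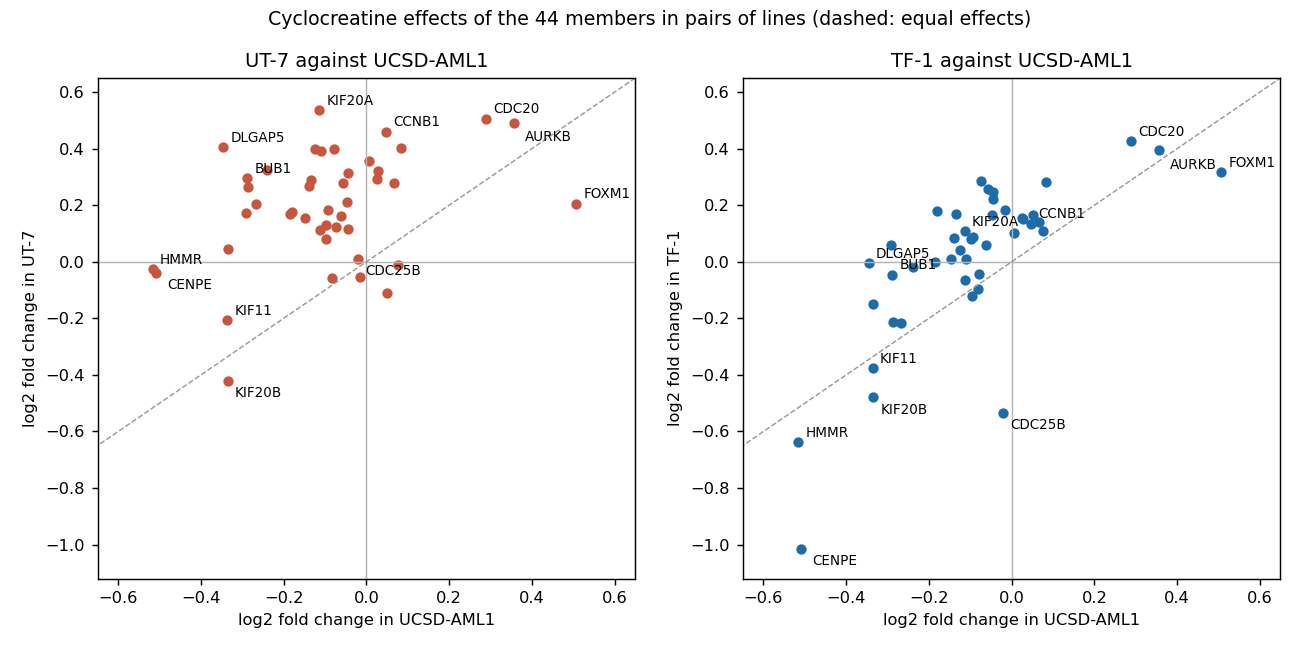
Log2 fold change of cyclocreatine over vehicle in UCSD-AML1 (x axis) against that in UT-7 (left, y axis) or TF-1 (right, y axis), 1 point for each of the 44 members and a dashed line of equal effects. UT-7 points lie mostly above the line, as the 32 members with a higher effect there, and in TF-1 HMMR and CENPE sit low in both lines while CDC25B is low in TF-1 alone.

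Vehicle levels of the members differed between lines, as they did for most genes. TF-1 had most members higher, with 31 higher and 6 lower than in UT-7 (background 41% and 38.7%, 79.7% together) and 25 higher and 13 lower than in UCSD-AML1 (40.6% and 43.3%, 84% together). UT-7 had 14 higher and 19 lower than UCSD-AML1 (40% and 41.5%, 81.5% together). CDC20 ranged over 524 to 558 CPM (TF-1), 124 to 134 CPM (UT-7) and 92.3 to 103 CPM (UCSD-AML1), a log2 difference of 2.04 ± 0.05 from UT-7 (adjusted p = 1.19e-29) and 2.44 ± 0.05 from UCSD-AML1 (3.55e-32). UBE2C was 4.65-fold higher in TF-1 than in UT-7 and 4.41-fold higher than in UCSD-AML1. TPX2 was 2.93-fold and 2.75-fold higher, and CCNB2 was 2.47-fold higher than in UT-7. TTK was 3.32-fold higher in TF-1 and 2.45-fold higher in UT-7 than in UCSD-AML1. CDK1 and KIF20A were 2.30-fold and 2.48-fold lower in UT-7 than in UCSD-AML1, and NUSAP1 1.55-fold lower. All of these passed in edgeR's test, and the cell line and its culture cannot be told apart.

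The responses of the members varied with their transcripts' composition, most in UCSD-AML1. Over the 44 members, Spearman's rho between log2 fold change and the GC of the longest protein-coding transcript (GENCODE) was 0.71 (UCSD-AML1), 0.40 (TF-1) and 0.33 (UT-7). Over 14118 genes it was 0.28, 0.05 and 0.03. With transcript length it was -0.48, -0.40 and -0.20 over the members and -0.18, -0.17 and -0.00 over the genes. These are descriptions over genes of the same libraries, without a test. AURKB, CDC20 and FOXM1 lie at the high end of GC, and KIF20B, CENPE and HMMR at the low end. Other members went against that order: CDC25B, with the highest GC (59.3%), fell in TF-1 and did not pass elsewhere, PLK1 (57.3%) did not pass in UCSD-AML1, and CDK1 (37.0%) rose in TF-1. The GC trend was also removed, an alternative added after the data were seen. For each library that trend was a smoothed curve, on GC, of log2 CPM minus the gene's mean over the 24 libraries. With it removed 12 members were lower and 3 higher in UCSD-AML1. UT-7 then had 30 higher and 2 lower, and TF-1 had 19 higher and 8 lower. FOXM1 in UCSD-AML1 was then at 0.43 (adjusted p = 2.01e-11) and HMMR at -0.37 (1.35e-08). The part of composition in these responses was not tested beyond that.

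**Figure D5:**
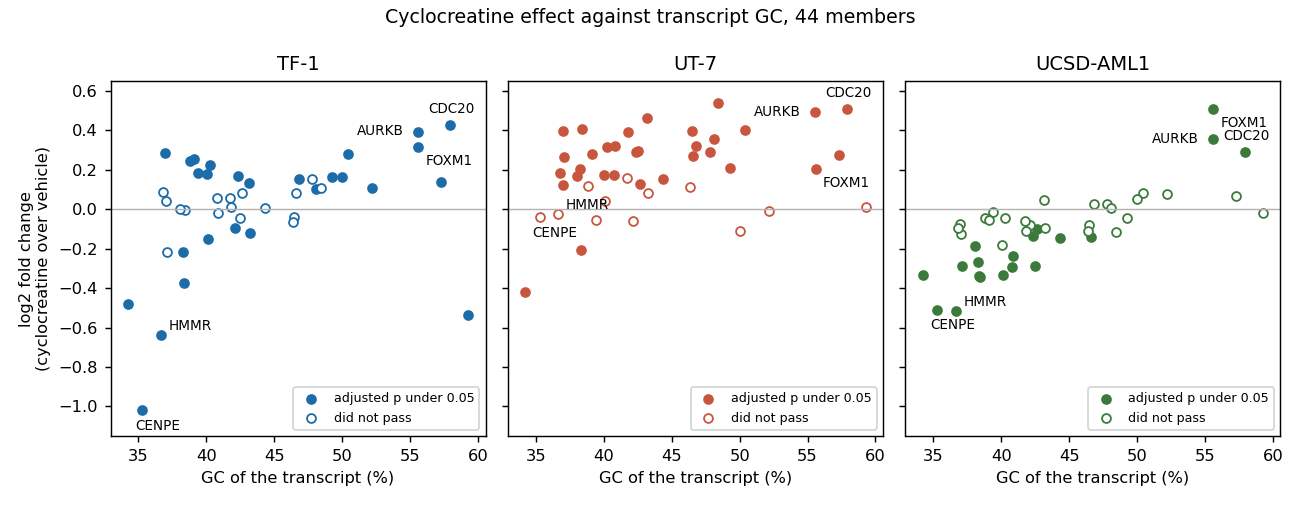
Log2 fold change of cyclocreatine over vehicle (y axis) against the GC percent of each member's longest protein-coding transcript (x axis) in 3 lines, filled where adjusted p is under 0.05. In UCSD-AML1 the points rise with GC (Spearman rho 0.71 over 44 members), and in UT-7 they lie above 0 over most of the range (rho 0.33).

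Members with CHR letters near the start are set here beside those without. Those without include CDC20, CDK1, ASPM and TOP2A, which carry CHR letters farther upstream. A CDC20 match at -65 to -60 begins just outside the stretch counted as near. CDC20 rose in all 3 lines, and CDK1 and TOP2A rose in TF-1 and UT-7. ASPM rose in UT-7 and fell in UCSD-AML1. The grouping thus rests in part on where that stretch was cut. The shares over all tested genes are those given with the role groups. In UT-7, 14 of 23 with the letters rose and 2 fell (median log2 fold change 0.17), against 12 of 15 and 0 without them (0.28). In UCSD-AML1 0 of 23 rose and 12 fell (-0.13), against 2 and 2 of 15 (-0.07). In TF-1 7 rose and 6 fell of 23 (0.01), against 7 and 3 of 15 (0.11). The difference between these groups was not tested. In the same stretch near the start, CHR letters were in 64% of 50 other G2/M genes with a sequence and in 2.17% of 46 G1/S genes.

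A further 62 G2/M and mitosis genes that are no members gave 22 higher and 16 lower in UT-7 (median 0.06), 29 and 14 in TF-1 (0.08, and 16 and 20 with unscaled totals), and 13 and 14 in UCSD-AML1 (-0.03). All tested genes gave 22.5% higher and 23.3% lower in UT-7, 26.7% and 29.3% in TF-1, and 19.1% and 21.3% in UCSD-AML1. HJURP, the chaperone that deposits CENPA, went from 48.8 ± 1.11 to 82.3 ± 5.75 CPM in UT-7 (log2 fold change 0.75 ± 0.05 SE, adjusted p = 4.71e-15) and from 62.6 ± 3.52 to 92.5 ± 4.36 CPM in TF-1 (log2 fold change 0.56 ± 0.05 SE, adjusted p = 2.41e-12). HMGB2, a chromatin protein, rose in TF-1 (log2 fold change 0.49 ± 0.04 SE, adjusted p = 4.16e-14), as did MIS18A, which licenses centromeres (log2 fold change 0.53 ± 0.05 SE, adjusted p = 4.3e-12). CKS2, a CDK partner, and KIFC1, a spindle motor, rose in UT-7 (log2 fold change 0.47 and 0.41). In UCSD-AML1 the ubiquitin ligase gene G2E3 fell from 26.7 ± 2.09 to 16.9 ± 0.52 CPM (log2 fold change -0.66 ± 0.08 SE, adjusted p = 4.01e-09).

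Genes of G1/S and DNA replication (52 genes) went the other way in UT-7. There 41 fell and 1 rose (median -0.27), where TF-1 had 19 fallen and 22 risen (0.03, and 22 and 17 with unscaled totals) and UCSD-AML1 17 and 15 (-0.02). The background was 23.3% fallen and 22.5% risen in UT-7, 29.3% and 26.7% in TF-1, and 21.3% and 19.1% in UCSD-AML1. The difference in effect between UT-7 and UCSD-AML1 was called lower in 34 and higher in 1 of the 52 (background 11.5% and 11.5%). That of TF-1 minus UT-7 was higher in 38 and lower in 1 (14.3% and 13.2%). MCM3, a subunit of the replicative helicase, went in UT-7 from 556 ± 8.27 to 354 ± 6.81 CPM (log2 fold change -0.65 ± 0.03 SE, adjusted p = 4.27e-19), MCM7 from 461 ± 6.54 to 301 ± 8.27 CPM and MCM4 from 465 ± 8.17 to 323 ± 5.40 CPM. The sum over the list went from 7096 to 7160 CPM in the UT-7 vehicle libraries to 5649 to 5777 CPM in the treated ones, with no overlap. The same UT-7 libraries thus held 30 higher members of the mitotic set and 41 lower replication genes. In TF-1 ORC1, of the origin recognition complex, rose (log2 fold change 0.66 ± 0.04 SE, adjusted p = 6.19e-17). POLA1, the catalytic subunit of DNA polymerase alpha, fell there (log2 fold change -0.82 ± 0.07 SE, adjusted p = 4.31e-13). CDT1, a licensing factor, rose in TF-1 (log2 fold change 0.50 ± 0.04 SE, adjusted p = 1.94e-12) and in UCSD-AML1 (log2 fold change 0.35 ± 0.04 SE, adjusted p = 3.88e-08). TYMS, thymidylate synthase, rose in UCSD-AML1 (log2 fold change 0.41 ± 0.04 SE, adjusted p = 9.23e-12) and CCNE2, cyclin E2, fell there (log2 fold change -0.61 ± 0.07 SE, adjusted p = 1.81e-08).

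The regulators of the set showed no single direction, and some of their counts lie near the shares over all tested genes. Those shares were 26.7% higher and 29.3% lower in TF-1, 22.5% and 23.3% in UT-7, and 19.1% and 21.3% in UCSD-AML1. They stand beside each list below. Of 17 genes of the anaphase promoting complex and its regulators, 6 rose and 3 fell in TF-1 (4 and 6 with unscaled totals), and 1 rose and 4 fell in both UT-7 and UCSD-AML1. CDC16, a core subunit, fell in TF-1 (log2 fold change -0.35 ± 0.04 SE, adjusted p = 6.32e-09) and UT-7 (log2 fold change -0.30 ± 0.04 SE, adjusted p = 1.55e-07), and FBXO5, which encodes the inhibitor EMI1, fell in UT-7 (log2 fold change -0.39 ± 0.05 SE, adjusted p = 6.87e-08) and UCSD-AML1 (log2 fold change -0.24 ± 0.05 SE, adjusted p = 0.000603). ANAPC1, the largest subunit, fell in TF-1 (log2 fold change -0.39 ± 0.06 SE, adjusted p = 2.58e-07) and UCSD-AML1 (log2 fold change -0.32 ± 0.06 SE, adjusted p = 3.85e-05). Of 19 cohesin and condensin genes, 8 fell and 1 rose in UCSD-AML1, 5 fell and 4 rose in TF-1, and 4 fell and 4 rose in UT-7. NCAPD3, a condensin II subunit, fell in all 3 lines, with log2 fold changes of -0.53 (TF-1), -0.25 (UT-7) and -0.29 (UCSD-AML1). RAD21, the cohesin ring subunit that separase cuts, rose in UT-7 (log2 fold change 0.31 ± 0.03 SE, adjusted p = 2.49e-10).

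Of 17 genes of MuvB, DREAM and the RB family, 9 rose and 4 fell in TF-1, 5 and 6 in UT-7, and 5 and 3 in UCSD-AML1. RBL1, the RB relative p107, fell in UT-7 (log2 fold change -0.45 ± 0.06 SE, adjusted p = 3.14e-07) and UCSD-AML1 (log2 fold change -0.60 ± 0.06 SE, adjusted p = 1.6e-10), and DYRK1A, the kinase that assembles DREAM, rose in TF-1 (log2 fold change 0.38 ± 0.04 SE, adjusted p = 1.53e-10). Of 18 genes of the G2 checkpoint and p53 arm, 7 rose and 5 fell in TF-1 (4 and 6 with unscaled totals), 4 and 7 in UT-7, and 3 and 3 in UCSD-AML1. CCNG1, cyclin G1, a p53 target, rose in each line: from 437 ± 9.80 to 642 ± 31.5 CPM in TF-1 (log2 fold change 0.56 ± 0.03 SE, adjusted p = 1.15e-16), from 251 ± 7.28 to 369 ± 13.5 CPM in UT-7 (log2 fold change 0.56 ± 0.03 SE, adjusted p = 4.15e-16) and from 318 ± 6.38 to 367 ± 2.39 CPM in UCSD-AML1 (log2 fold change 0.21 ± 0.03 SE, adjusted p = 5.46e-06). CDKN1A, the CDK inhibitor p21, went from 8.15 ± 0.84 to 3.87 ± 0.84 CPM in TF-1 (log2 fold change -1.07 ± 0.12 SE, adjusted p = 1.05e-09). BTG2, another p53 target, fell in UT-7 (log2 fold change -0.73 ± 0.06 SE, adjusted p = 7.24e-13), and CCNG2, cyclin G2, rose there (log2 fold change 0.96 ± 0.09 SE, adjusted p = 4.54e-12). In UCSD-AML1 CHEK2, a checkpoint kinase, fell (log2 fold change -0.44 ± 0.06 SE, adjusted p = 6.08e-08).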

How the data were processed

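RNA sequencing gave 24 libraries. The deposited files hold whole-number counts per gene symbol. FastQC, TopHat2, RSEM, GRCh37 and hg19 are named per the submitters' processing notes, and their versions and roles were not given in the sources used here. Strand was not stated either, so reads of overlapping or antisense genes cannot be told apart. Members and lists were chosen with earlier results of these data known.

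All 24 libraries entered edgeR 4.0.16 (R 4.3.3) with filterByExpr (count minimum 10, total minimum 15), TMM factors and 1 mean per group with robust quasi-likelihood. The 9 contrasts were treatment within each line, differences of treatment between lines, and vehicle levels between lines. Adjustment was Benjamini-Hochberg over 14588 genes, with 18 residual degrees of freedom and a median biological coefficient of variation of 0.0578. No 2 replicates agreed within sampling noise (chi-square over its degrees of freedom was 1.29 to 19.3 in 36 pairs). It was 2.77 to 19.3 in TF-1, 1.29 to 3.78 in UT-7 and 1.39 to 3.08 in UCSD-AML1. The 6 groups shared 1 estimate of spread per gene, so p-values in each line rest partly on the other lines. With its own libraries alone TF-1 kept 19 of 27 calls. Those of KIF14, CCNA2, PTTG1, ANLN, BUB1B, PRC1, BIRC5 and NDC80 ended. UT-7 alone kept its 32 calls and gained 4, and UCSD-AML1 alone kept its 19 and gained 10.

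Full values were given for 8 key regulators, up to 2 members per role and line and the 4 with the smallest p per between-line contrast, and up to 3 genes per other list; further members are named to account for the set. Deviations of same-numbered vehicle and treated libraries had correlations of only -0.05 to 0.07, so numbers were not taken as pairs. In UCSD-AML1, though, vehicle replicates 1, 2 and 3 each matched best with the treated library of their number (0.020, 0.023 and 0.072). Alternatives were library totals, RLE, DESeq2 1.42.0, limma-voom (limma 3.58.1), no filter, subsets of lines, a replicate block, leaving out each library and, added after the data were seen, removing trends with GC or length.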

Additional observations from a re-analysis of the deposited data

Results flagged for a closer look

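In 13 of 198 groups of 4 libraries, over 33 genes, 1 library lay far from the other 3 by Dixon's test, and chance alone gives about 1 in 20. In TF-1 the vehicle libraries that stood apart were CCNA2 in replicate 1 (161 CPM), CCNB2 in replicate 4 (184 CPM) and PLK1 in replicate 2 (218 CPM). In TF-1 cyclocreatine libraries they were CCNA2 in replicate 3 (163 CPM), NUF2 in replicate 3 (40.5 CPM), KIF2C in replicate 1 (362 CPM) and TOP2A in replicate 1 (665 CPM, against 841 to 856 CPM in the others). In UT-7 they were NUF2 (66.0 CPM) and CDC20 (124 CPM), both in vehicle replicate 1, and CDK1 in cyclocreatine replicate 3 (67.0 CPM). In UCSD-AML1 they were ECT2 in vehicle replicate 2 (49.9 CPM) and, in cyclocreatine replicate 2, FOXM1 (169 CPM) and PRC1 (126 CPM).

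The effect of cyclocreatine differed between lines, by edgeR's interaction test, for the members named below, as log2 differences. TF-1 minus UT-7 gave CENPE -0.98, CDC25B -0.54, HMMR -0.61 and DLGAP5 -0.41. TF-1 minus UCSD-AML1 gave CDC25B -0.51, CENPE -0.51, DLGAP5 0.34 and CDK1 0.36. UT-7 minus UCSD-AML1 gave DLGAP5 0.75, BUB1 0.58, KIF20A 0.65 and CCNB1 0.41. DLGAP5 is in all 3 of these comparisons, which share groups of libraries with each other.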

How the results depend on the processing

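Of 2413 alternative values for 137 gene results, 2349 kept their direction and their side of the threshold, 54 lost the call and 6 gained it. Apart from the 8 key regulators, these genes were picked as called genes with the smallest p, which favours keeping the call. Over all members TF-1 kept 18 of 27 calls with unscaled totals and 19 of 27 with its own libraries alone. UBE2C in TF-1, called higher, changed sign, to -0.0076 (adjusted p = 0.897, edgeR) with the length trend removed. CDK1 (0.07), PLK1 (-0.04) and TOP2A (0.06) changed sign in UCSD-AML1 with the GC trend removed, where they passed in neither fit. With unscaled library totals TF-1 had 9 members higher, against 18, and TF-1 minus UCSD-AML1 had 6 higher, against 17. Over all tested genes those higher counts went from 3901 to 3001 and from 2156 to 1329. With the libraries of 1 line alone TF-1 had 14 higher, against 18, and 5 lower, against 9. UT-7 then had 34 higher, against 30. UCSD-AML1 had 6 higher, against 3, and 23 lower, against 16. With the GC trend removed TF-1 minus UCSD-AML1 had 5 lower, against 3, and UT-7 minus UCSD-AML1 had 2 lower, against 1. With the length trend removed TF-1 minus UT-7 had 1 higher, against 2. The cause was not tested. Leaving out 1 library gave 15 to 19 higher and 7 to 11 lower in TF-1, 26 to 30 higher in UT-7, 14 to 17 lower in UCSD-AML1, and 1 to 3 higher for TF-1 minus UT-7. A replicate block, by numbers that were not taken as pairs, gave 17 higher and 8 lower in TF-1, 29 and 2 in UT-7 and 3 and 15 in UCSD-AML1. It ended the calls of BIRC5 and NDC80 in TF-1, ASPM in UT-7, and ASPM and NUSAP1 in UCSD-AML1. ANLN gained a call as lower in UCSD-AML1 (edgeR, adjusted p = 0.0279). Under the block the differences numbered 2 higher and 16 lower for TF-1 minus UT-7, 14 and 3 for TF-1 minus UCSD-AML1, and 31 and 1 for UT-7 minus UCSD-AML1. No paired analysis was possible for vehicle levels because the block is nested in the lines. The lowest count of a member in a library was 127, for CDC25C in UT-7 vehicle cells, so counting error is largest for that gene.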
